A study of Mus musculus with 2 samples.

Results

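Among the macrophages sorted from mouse pancreatic islets, 79 cells carried islet hormone RNA at 1% or more of their own RNA. They were taken from 1706 cells that passed a macrophage gate, of which they made up 4.63% (exact 95% interval 3.68 to 5.74%), and from 2237 cell barcodes in all. The gate asked for at least 200 genes, at most 10% mitochondrial UMIs, at least 5000 RNA UMIs and at least 2000 counts per 1000000 RNA UMIs (CPM) of the complement genes C1qa, C1qb and C1qc together. A UMI, or unique molecular identifier, marks 1 captured RNA molecule. Hormone RNA was the sum of Ins1, Ins2, Iapp, Gcg, Sst, Ppy and Pyy. These hormone-rich macrophages were compared with 1354 hormone-poor gated macrophages, in which the same 7 genes were under 0.2%, and 273 gated cells lay between.

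Islets of 6 to 8 male wild-type C57BL/6J mice were pooled, and live CD45+ cells negative for Epcam were sorted from them. Antibodies carrying DNA barcodes against CD9 and CD206 were applied after the sort, per the extract protocol, whereas the design text names CD9 alone. The pooled cells are 1 sample read as 2 libraries, of mRNA and of antibody tags, and every one of the 2237 barcodes had UMIs in both. No mouse or condition was replicated, so no test was made, and every interval is a 95% interval. Intervals of ratios and sums cover the counting error of UMIs only and not the spread between cells or mice. Intervals of shares of cells treat the cells as independent draws and do not cover the spread between mice.

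Islet macrophages live among the endocrine cells of the islet, close to the vessels and to the insulin-secreting beta cells. Macrophages clear dying cells by engulfing them and breaking them down in lysosomes, and islet macrophages are also known to take up insulin granules released by beta cells. The hormone genes are transcribed in endocrine cells, and their products are packed in granules together with chromogranins and the convertases that cut the prohormones.

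The cells were chosen by the hormone share, which is given as a description. It ran from 1.01% to 15.2% of RNA UMIs, with a median of 2.54%, or 64 to 5715 hormone UMIs per cell with a median of 523. The share had no gap at the threshold: the lowest cells inside were at 1.0057% and 1.0062%, and the highest outside at 0.9966% and 0.9948%. Over all 1706 gated macrophages the median was 0.0995%. In 104 lymphocytes of the same suspension it was 0.0968%, with a highest value of 0.322%, so the usual hormone level of a macrophage was that of cells of another type, at median depths of 20948.5 and 9796.5 RNA UMIs. Every hormone-rich cell lay above each of these 104 lymphocytes, but the gates partly set this separation. The hormone-rich cells were chosen by hormone share. In addition, 1 cell that met the lymphocyte gate also met the endocrine gate, which asks for a high hormone share, and was counted as endocrine. The highest value of 0.322% leaves that cell out.

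**Figure D1:**
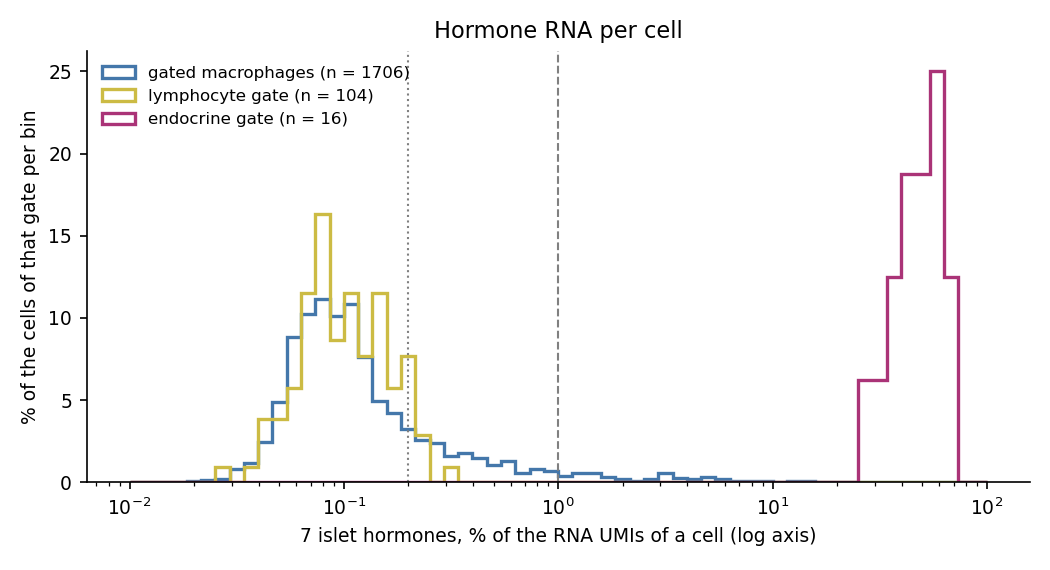
Hormone RNA as a percentage of the RNA UMIs of each cell (x axis, logarithmic) against the percentage of the cells of each gate per bin (y axis), for 1706 gated macrophages, 104 lymphocytes and 16 endocrine cells; the dotted line is at 0.2% and the dashed line at 1%. The main peaks of macrophages and lymphocytes lie on each other, the macrophages have a tail to 15.2%, and the endocrine cells start at 28.5%.

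The mixture of hormones was that of beta cells in 76 of the 79 cells. Ins2 (chromosome 7, 142678656 to 142679726, GRCm38.p6), the conserved mouse insulin gene, gave 58.5% of the hormone UMIs, with 11 to 3358 UMIs per cell and a median of 290. Ins1 (chromosome 19, 52264297 to 52265015), its rodent duplicate, gave 28.4%, with 3 to 1801 UMIs per cell and a median of 140. The 2 insulin genes are near-identical copies and their split depends on how reads were assigned. Iapp (chromosome 6, 142298425 to 142303820), which encodes amylin, a peptide secreted together with insulin, gave 6.32%. All 79 cells held UMIs of all 3 genes. The leading hormone was 1 of these 3 genes in 96.2% of hormone-rich cells and in 99.7% of hormone-poor cells. The share was 95.2% in the cells between and 98.1% in lymphocytes, so this lead was not particular to the hormone-rich cells. Summed Ins2 UMIs were 2.06 times those of Ins1 in the hormone-rich cells, 2.41 times in the hormone-poor cells and 2.19 times in 16 endocrine cells of the suspension (hormones at least 20% of RNA UMIs, C1q under 500 CPM).

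In the remaining 3 cells the leading hormone was Ppy (chromosome 11, 102099931 to 102101319), which encodes pancreatic polypeptide, made by the PP cells of the islet. Together with its neighbour Pyy, which encodes peptide YY, it gave up to 98.9% of a cell's hormone UMIs, while in every one of the other 76 cells Ins1, Ins2 and Iapp gave over 50%. Gcg, the glucagon gene of alpha cells, led in none of the 79 cells and gave 0.472% of their hormone UMIs, against 5.76% in the hormone-poor cells. Its own level was 158 against 51.6 CPM, with 39.1% of its UMIs in 1 cell, and 74.7 against 61.2% of cells held a UMI. Sst, the somatostatin gene of delta cells, had 1 UMI in all 79 cells together. In the 273 cells between the thresholds, Gcg led in 5, Sst in 6 and Ppy in 2.

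**Figure D2:**
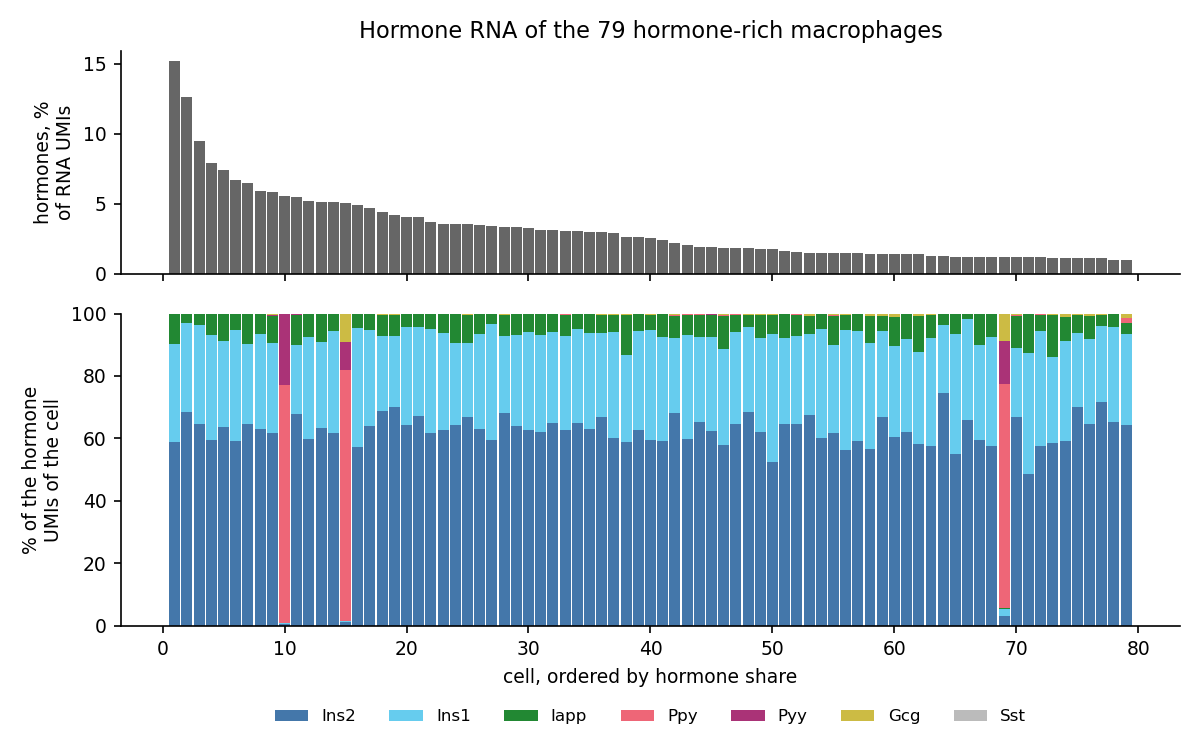
The 79 hormone-rich macrophages ordered by hormone share (x axis), with the hormone percentage of RNA UMIs above and the percentage of each cell's hormone UMIs given by each of the 7 genes below. In 76 cells Ins2 is the largest part, followed by Ins1 and Iapp, and in 3 cells Ppy and Pyy are over 50%.

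The cells carried macrophage markers that the rule did not use. Adgre1, which encodes the macrophage surface protein F4/80, had a UMI in all 79 cells, and Csf1r, the receptor of the macrophage growth factor CSF-1, in 98.7% of them. Adgre1 stood at 407 CPM against 346 CPM in hormone-poor cells (ratio 1.18, 1.09 to 1.27) and Csf1r at 317 against 329 CPM (0.96, 0.88 to 1.05). CPM here and below is counted over RNA UMIs other than the 7 hormones. The cells were slightly deeper than the hormone-poor cells: their RNA UMIs other than hormones had a median of 21993, against 20991.5, with 4053 against 4014 genes and 1.40 against 1.35% mitochondrial UMIs. Scrublet, a doublet caller that compares cells with simulated pairs, marked 0 of the 79, and none was among the 40 highest scores of the suspension, although its median score was 0.0811 in hormone-rich and 0.0586 in hormone-poor cells. At its own threshold it marked 7 of 2215 cells (0.316%), and the absence of a mark is not read as the absence of doublets.

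Genes other than the hormones that mark endocrine cells were also higher. Of 75 listed genes of endocrine granules and of beta, alpha, delta and PP cell identity, 23 had at least 100 UMIs in the 2 groups together; 16 of these were at least 1.5-fold higher in the hormone-rich cells, and 0 were 1.5-fold lower. Over all 9631 genes so counted, 5.72% were 1.5-fold higher and 10.1% 1.5-fold lower. The median log2 ratio of the 23 was 1.71, beside -0.02 for all genes. A gene of this kind passes the count minimum largely through the group in which it is high, so the share of the 23 is a description.

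Chga (chromosome 12, 102554941 to 102565027), which encodes the granule protein chromogranin A, ranged from 0 to 66 UMIs per hormone-rich cell and from 0 to 3 per hormone-poor cell. It stood at 242 CPM against 8.98 CPM (ratio 26.9, 23.1 to 31.5), and 63 of the 79 cells held a UMI. Scg2, secretogranin II, followed at 182 against 6.41 CPM (28.4, 23.6 to 34.1). Pcsk2, the convertase that cuts proinsulin and proglucagon, stood at 185 against 5.21 CPM (35.6, 29.3 to 43.3), with 32.1% of its UMIs in 1 cell. Resp18, a granule protein of endocrine cells, reached 61.7 against 1.57 CPM (39.3, 27.7 to 56.7). These are abundant granule genes, and each of the 4 was found in at least 37 of the 79 cells.

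Genes of lower abundance in endocrine cells were found in fewer. G6pc2, the glucose-6-phosphatase of the beta cell, had 67 UMIs in 34 cells. Slc30a8, the zinc transporter of the insulin granule, had 48 UMIs in 18 cells, of which 41.7% were in 1 cell. The beta cell transcription factors Mafa, Pdx1 and Nkx6-1 had 18, 10 and 10 UMIs, in 17, 8 and 9 cells. Epcam, the epithelial protein against which the cells were sorted, was at 5.14 against 3.04 CPM, a ratio of 1.69 whose interval (0.75 to 3.36) includes 1.

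Pan-endocrine markers (Chga, Chgb, Scg2, Pcsk1n, Cpe and Neurod1) followed the hormone share. At least 1 UMI of the 6 was present in 94.9% of hormone-rich cells (87.5 to 98.6%), in 68.1% of the cells between (62.2 to 73.6%) and in 35.2% of hormone-poor cells (32.7 to 37.8%). Lymphocytes, which should lack these genes, had a UMI in 26.0% (17.9 to 35.5%), at 9796.5 against 22678 RNA UMIs per cell. Per 1000 hormone UMIs, the hormone-rich cells held 17.2 UMIs of the 6 markers and the endocrine cells 24.9, a ratio of 0.693 (0.650 to 0.738). The hormone-poor cells held 25.4 and the lymphocytes 34.6. When every cell was thinned to 5000 RNA UMIs other than hormones, Chga was still found in 44.3% of hormone-rich cells, against 3.99% of hormone-poor cells and 6.73% of lymphocytes (79.7, 16.7 and 14.4% before thinning).

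Within the endocrine RNA, genes were not held in the proportions of the endocrine cells, and 1 hormone-rich cell stood apart. Over 229 genes whose CPM in the endocrine cells was at least 100 times that of hormone-poor cells, that cell held 3194 of the 5652 UMIs of all 79 (56.5%), and the next cell held 241. It had 30595 RNA UMIs, 6051 genes, hormones at 5.16%, C1q at 2255 CPM, the lowest of the 79 and near the gate limit, and 3 UMIs of Adgre1. Its mitochondrial share was 4.74%, and Scrublet did not mark it (score 0.0623). The 229 genes stood at 110077 CPM in this cell, 114264 CPM in the endocrine cells and 1428 CPM in the other 78 cells. It had 20 CD9 and 1 CD206 antibody UMIs, beside medians of 43.5 and 1 in endocrine and 493 and 12 in hormone-rich cells. By these values it was closer to the endocrine cells than to the other 78, yet it stays among the 79 elsewhere. The span values that follow leave it out unless stated; it was picked after the data were seen, as the cell with most of these UMIs.

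In the other 78 cells the endocrine-enriched genes stood lower, per hormone UMI, the longer the gene, an order that depends on leaving out that cell. Genes spanning under 10 kb of the genome (28 genes) had 66.6% of their level per hormone UMI in the endocrine cells (61.5 to 72.0%). Genes of 10 to 100 kb (74 genes) had 47.4% (44.7 to 50.3%), and genes of 100 kb or more (123 genes) 21.9% (20.2 to 23.8%). After the level of the hormone-poor cells was subtracted from genes and hormones, the same values were 63.4, 44.2 and 15.8%. The median over single genes was 64.2% in the shortest class, 40.9% in the middle and 11.6% in the longest, where 103 of the 123 genes lay under 25% and 27 had no UMI. With a 10-fold in place of the 100-fold enrichment, after subtraction, the 3 values were 63.1, 40.5 and 9.89%. Span came from the RefSeq annotation, and transcript length, abundance and the nuclear share of a transcript were not separated from it.

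Single genes show the range. Pcsk1n, a short gene of 4.59 kb for an inhibitor of the convertase PCSK1, was at 95.6% of its endocrine level per hormone UMI, and Resp18 (6.22 kb) at 87.5%. Scg2 (5.66 kb) was at 64.4% and G6pc2 (16.9 kb) at 115%. Cntnap2, a neuronal adhesion gene of 2241 kb, was at 4.46%, while Kcnma1 (713 kb), a potassium channel, and Hs6st3 (732 kb), a heparan sulfate sulfotransferase, had no UMI in the 78 cells. A count of 0 allows up to 3 UMIs. Meg3, a maternally expressed long noncoding RNA known to stay mostly in the nucleus, was at 7.56% although it spans 30.7 kb, and Pcsk2 was at 56.7% although it spans 270.2 kb. With the left-out cell included, the 79 cells were at 74.4, 66.6 and 109.9% from the shortest to the longest class. The cells between the thresholds, all included, were at 103, 108 and 256%. Among them, too, 1 cell held most of the longest class, 2130 of its 2827 UMIs, and at most 298 of the 1054 UMIs of the middle class were in 1 cell. In the hormone-rich cell left out, the values rose with span: 353% for the shortest class, 759% for the middle and 3278% for the longest.

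**Figure D3:**
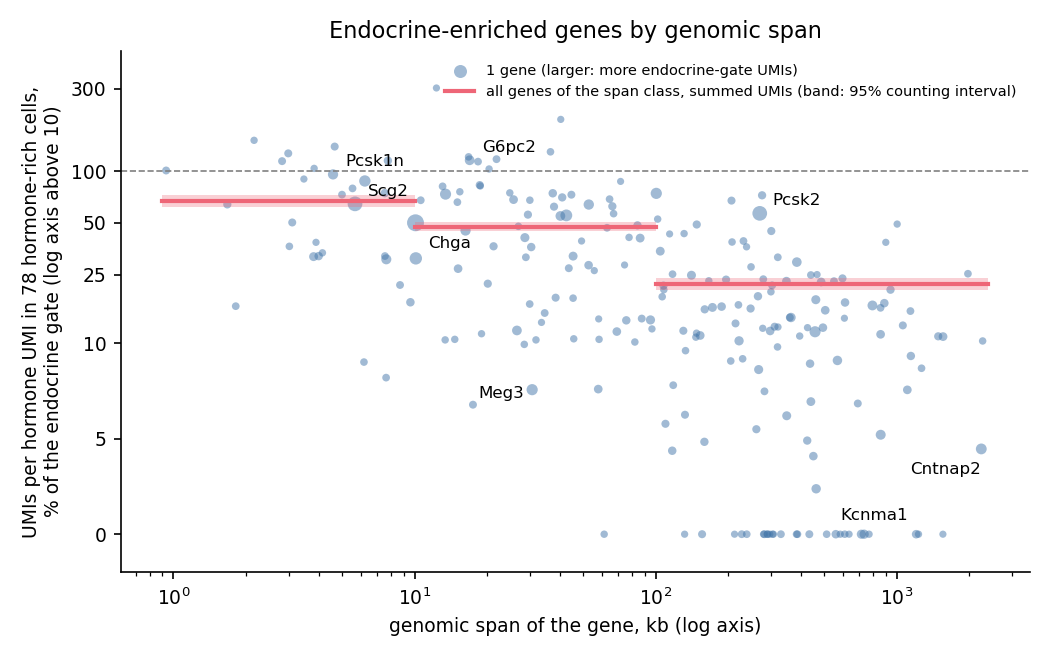
Each point is 1 of 225 endocrine-enriched genes with a known span, by genomic span in kb (x axis, logarithmic) and by its UMIs per hormone UMI in 78 hormone-rich macrophages as a percentage of the same in the endocrine cells (y axis, logarithmic above 10). The red lines, with counting intervals as bands, are the summed UMIs of each span class, at 66.6, 47.4 and 21.9%; the cell that held 56.5% of these UMIs is left out.

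Most of the leading genes of the comparison rested on 1 cell. By the bound of the interval nearest to 1, the 12 genes with the highest ratio outside the endocrine lists were Phactr1, Kcnip1, Cntnap2, Ctnnd2, Trpm3, Zdhhc2, Frmd5, Chrm3, Chic1, Ccser1, Tll2 and Cacna1a. All but Tll2 were nevertheless among the endocrine-enriched genes above. For each of them the same cell, the one left out of the span values, held most of the UMIs. Phactr1 was at 85.7 against 1.13 CPM with 92.0% of its UMIs in 1 cell, and at a ratio of 6.14 without the cell with most of its UMIs. Kcnip1 was at 93.7 against 1.44 CPM with 96.3% in 1 cell, and at 2.43 without it. Trpm3 and Frmd5 were under 1 without their top cell, at 0.37 and 0.31. Tll2 had 62 UMIs in 3 cells and none in the endocrine cells. Of all genes, 364 (3.78%) were 1.5-fold higher with an interval above 1. Of the 364, 125 passed the same rule when the hormone-rich cell with most UMIs of the gene was left out, a removal that by its construction tends to lower the ratio. In the endocrine cells 84 of the 364 (23.1%) stood at 10 times the hormone-poor CPM or more, beside 2.84% of all counted genes. Genes that are low in hormone-poor cells tend to pass the count minimum through the hormone-rich cells, so this share is a description.

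Apart from endocrine RNA, the macrophage program differed in selected groups of genes. With the interval below 1, 534 genes (5.54%) were 1.5-fold lower. Among 5760 genes detected in at least 25% of hormone-poor cells, 25 were higher and 271 lower by this rule also without their top cell. This filter was chosen after the data were seen and by its construction is harder for the higher genes to pass. Among the 25, Grap2, an adaptor of immune receptors, was at 1.85 and Blnk, an adaptor of B cell receptor signalling, at 1.69 times the hormone-poor level.

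The 12 lowest genes by the same rule were Gpnmb, Cd247, Gm50020, Plagl1, Efr3b, Hspa1a, Slpi, Cxcl9, Spp1, Hspa1b, Hamp and D130040H23Rik. Cd247, Gm50020, Hamp and D130040H23Rik had 0 UMIs in the 79 cells, which allows up to 1.71 CPM, and stood at 17.3, 10.4, 6.74 and 6.68 CPM in the hormone-poor cells. Several of the 12 came from few hormone-poor cells: Hamp, the iron hormone hepcidin, had 94.1% of its UMIs in 10 cells, and Cxcl9, a chemokine induced by interferon gamma, had 75.2%. Hspa1a was spread over 730 hormone-poor cells, with 8.04% of its UMIs in 10 of them.

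Targets of NRF2, the transcription factor of the antioxidant response, were lower. Of 20 listed genes 9 were 1.5-fold lower, beside 10.1% of all genes, and 8 of them had an interval below 1, beside 5.54%. Of the 20 listed genes 0 were 1.5-fold higher, beside 5.72% of all genes. Their median log2 ratio was -0.55, beside -0.02 for all genes. Summed, they stood at 41844 CPM against 53382 CPM (ratio 0.784, 0.778 to 0.790). Per cell the sum ran from 11188 to 95943 CPM with a median of 38148 in hormone-rich cells, and from 4833 to 115501 CPM with a median of 51649 in hormone-poor cells, so the groups overlapped widely. Of the 79 cells, 21 (26.6%, 17.3 to 37.7%) were above the hormone-poor median.

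Hmox1 (chromosome 8, 75093618 to 75100593), heme oxygenase 1, which breaks down heme, ranged from 0 to 12840 CPM per hormone-rich cell with a median of 552, and from 0 to 20088 CPM per hormone-poor cell with a median of 2400. Summed, it was at 1702 against 3568 CPM (0.48, 0.46 to 0.49), and 20.3% of hormone-rich cells (12.04 to 30.8%) were above the hormone-poor median. Srxn1, sulfiredoxin, which restores oxidised peroxiredoxins, was at 190 against 418 CPM (0.45, 0.41 to 0.51). Prdx1, a peroxiredoxin that removes hydrogen peroxide, was at 2706 against 4910 CPM (0.55, 0.54 to 0.57). Gclm and Gclc, which encode both subunits of glutamate-cysteine ligase, were at 0.50 (0.44 to 0.57) and 0.55 (0.49 to 0.62) of the hormone-poor level. The iron-storage genes Fth1 and Ftl1, the most abundant of the list, differed less, at 0.90 and 0.78.

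The cells between the thresholds lay between the groups for this list. Their summed ratio, to the same hormone-poor cells, was 0.923 (0.920 to 0.927), and Hmox1 was at 0.69. Ordered by the list's level, the lowest tercile of gated macrophages held 46 hormone-rich cells (8.10%, 5.99 to 10.7%) and the highest tercile 9 (1.58%, 0.73 to 2.98%). Other measures differed alongside: heat shock genes summed to 0.76 of the hormone-poor level and immediate early genes, which dissociation is known to induce, to 0.903. Within terciles of CD9 antibody, heat shock, immediate early genes or depth, 12 strata in all, the summed NRF2 ratio was between 0.68 and 0.94 and that of Hmox1 between 0.27 and 0.69. These strata were chosen after the data were seen. In the endocrine cells the list stood at 5290 CPM.

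**Figure D4:**
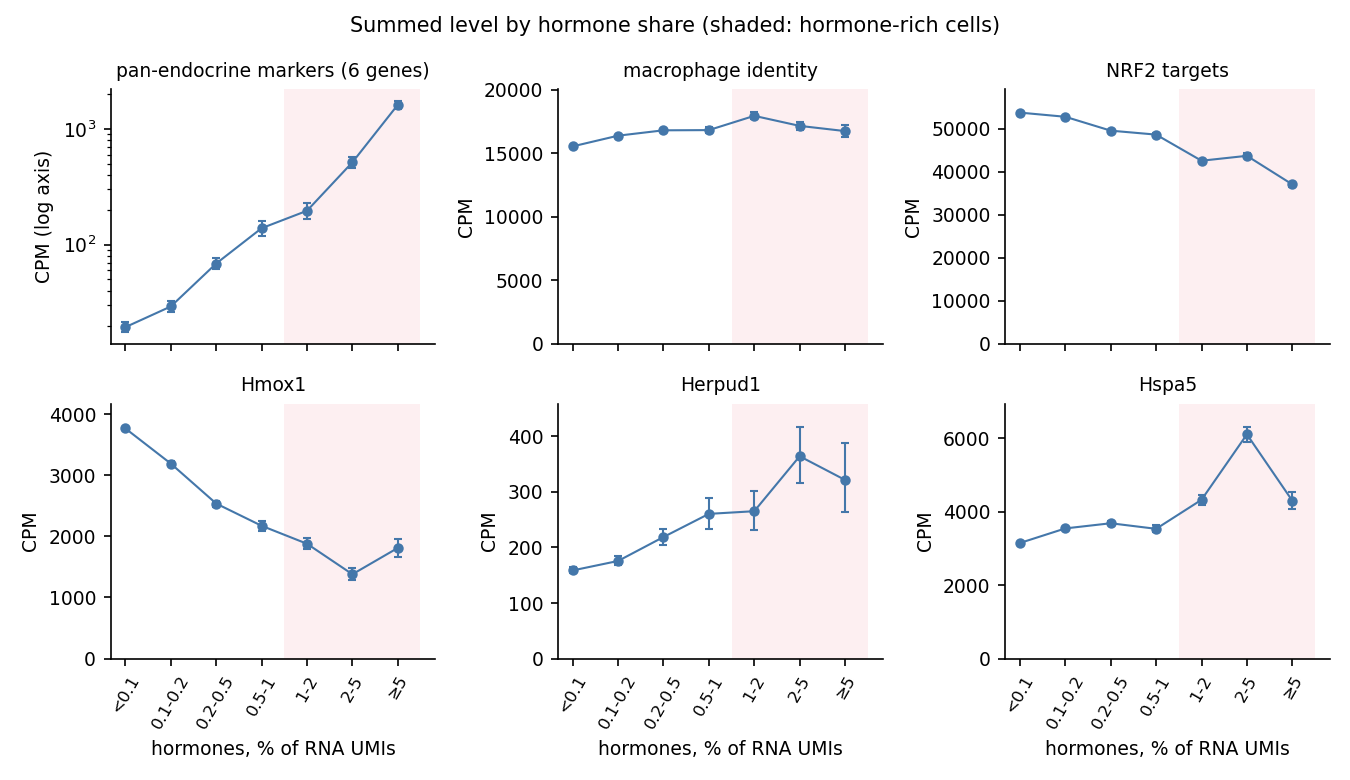
Summed CPM of 3 gene groups and 3 genes (y axes; logarithmic for the pan-endocrine markers) in gated macrophages binned by hormone percentage (x axis), with exact Poisson 95% intervals; the bins hold 857, 497, 206, 67, 36, 28 and 15 cells and the shaded ones are the hormone-rich cells. From the lowest to the highest bin NRF2 targets go from 53711 to 37037 CPM, while macrophage identity genes stay between 15536 and 17938 CPM.

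In the unfolded protein response, which relieves stress of the endoplasmic reticulum, Herpud1 passed the 1.5-fold rule and the list was higher in sum. The list summed to 1.22 of the hormone-poor level (1.20 to 1.23), and 63.3% of hormone-rich cells (51.7 to 73.9%) were above the hormone-poor median. Of 19 counted genes of the unfolded protein response, 1 was 1.5-fold higher, beside 5.72% of all genes, and 1 was 1.5-fold lower without an interval below 1, with a median log2 ratio of 0.14. Herpud1 (chromosome 8, 94386429 to 94395371), a membrane protein that helps to degrade misfolded proteins, had a median of 226 CPM per hormone-rich cell against 111 CPM, and 81.0% of the cells (70.6 to 89.0%) were above the hormone-poor median. Summed, it was at 309 against 164 CPM (1.88, 1.71 to 2.05), and at 1.39 in the cells between. Hspa5, the chaperone BiP, ran from 503 to 23113 CPM per hormone-rich cell with a median of 4264, against a median of 2784 in hormone-poor cells. Its summed ratio was 1.49 (1.46 to 1.53), just under the 1.5-fold rule, and 68.4% of the cells were above the hormone-poor median.

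In the endocrine cells Herpud1 was at 693 CPM and Hspa5 at 8277 CPM. Whether endocrine RNA has a part in the higher level of these 2 genes was not tested. Atf4 and Xbp1, transcription factors of the response, were at 0.69 (0.60 to 0.79) and 0.90 (0.81 to 0.99). Over the 12 strata Herpud1 stayed between 1.39 and 2.55, and Hspa5 between 1.04, in the lowest tercile of immediate early genes, and 1.86. The summed list was between 0.968 (0.937 to 0.9995), in that same tercile, and 1.40, so it was not higher in every stratum. By hormone share the list was at 9854 CPM under 0.1%, 10037 CPM from 0.5 to 1%, 13803 CPM from 2 to 5% and 10793 CPM at 5% and over. It thus did not follow the share throughout.

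Genes of macrophage identity, lysosome and antigen presentation were near the hormone-poor level. Of 20 counted identity genes 1 was 1.5-fold higher, beside 5.72% of all genes. It was Fcgr1, the high-affinity IgG receptor, at 90.3 against 59.7 CPM (1.51, 1.28 to 1.78). The median log2 ratio of the list was 0.14. The genes of MHC class II and costimulation summed to 1.01 of the hormone-poor level, with Cd74, the invariant chain, at 1.02, and Cd274, which encodes PD-L1, at 1.71 (1.52 to 1.93). Of 39 counted lysosomal genes 0 were 1.5-fold higher and 4 lower, beside 5.72 and 10.1% of all genes. The list's median log2 ratio was -0.06 while its sum was 1.03 times the hormone-poor sum. Ctsd, the lysosomal protease cathepsin D, was at 0.66 (0.59 to 0.73), and Ctsb and Lamp1 at 1.02 and 0.95. Gla, alpha-galactosidase, was at 0.66 (0.58 to 0.75).

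Genes for the uptake of dying cells were called at shares near those of all genes. Of 28 counted genes of apoptotic cell recognition and bridging 3 were higher and 4 lower, beside 5.72 and 10.1% of all genes, with a median log2 ratio of 0.00. The list summed to 1.07 of the hormone-poor level (1.05 to 1.08), and 65.8% of hormone-rich cells (54.3 to 76.1%) were above the hormone-poor median. The receptors Mertk and Axl, which bind apoptotic cells through bridging proteins, were at 0.99 (0.65 to 1.45) and 0.94 (0.86 to 1.03). Cd36, a scavenger receptor, was at 0.73 (0.68 to 0.78) and Trem2, a lipid receptor, at 0.83 (0.71 to 0.96). Higher were Cd300lf, a receptor for phosphatidylserine, at 26.9 against 12.2 CPM (2.20, 1.59 to 2.98), the ADP receptor P2ry12 at 2.15 (1.44 to 3.11), and Pros1, the bridging protein S, at 1.57 (1.09 to 2.19). Anxa1, annexin A1, was lower at 0.30 (0.18 to 0.46). Of 41 counted genes of the engulfment machinery 0 were 1.5-fold higher and 2 lower. For that list 38.0% of hormone-rich cells (27.3 to 49.6%) were above the hormone-poor median.

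Of 17 counted genes known from lipid-associated macrophages 5 were 1.5-fold lower and 0 higher, beside 10.1 and 5.72% of all genes, and 12 did not pass the rule, with a median log2 ratio of -0.34, although the summed list was at 1.01 of the hormone-poor level and 48.1% of the cells were above the hormone-poor median. Gpnmb, a glycoprotein of lipid-laden macrophages, had 1 UMI in the 79 cells, against 26.8 CPM in the hormone-poor cells (ratio 0.02, at most 0.12). In the hormone-poor cells, however, only 6.35% held a UMI of it, and 10 cells held 66.3% of its UMIs. Spp1, osteopontin, was at 29.7 against 127 CPM (0.23, 0.17 to 0.31), with 45.3% of the hormone-poor UMIs in 10 cells. Cd9 itself was at 127 against 230 CPM (0.55, 0.48 to 0.63). Of 12 counted growth factor genes 5 were lower and 0 higher, among them Pdgfa at 65.1 against 98.9 CPM (0.66, 0.54 to 0.79). Igf1 and Areg were at 0.25 and 0.36, each in only 3 hormone-rich cells.

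Among 23 counted cytokine and chemokine genes 3 were higher and 2 lower, beside 5.72 and 10.1% of all genes. Il12b, the p40 subunit of IL-12 and IL-23, was at 369 against 124 CPM (2.98, 2.73 to 3.24). It was found in 21 of the 79 cells, and 35.2% of its UMIs were in 1 of them, without which the ratio was 1.96. By hormone share its level was 130 CPM under 0.1%, 476 CPM from 1 to 2% and 145 CPM at 5% and over, so it did not follow the share throughout. Nfkbiz, an NF-kappa-B regulator, was at 1.73 (1.56 to 1.91). Tnf was at 1.44 (1.35 to 1.53), and Il1b, at 1.09 (1.06 to 1.13), was at 0.99 without the cell with most of its UMIs. Ccl7 was lower, at 0.30 (0.19 to 0.46).

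Of 14 counted heat shock genes 4 were 1.5-fold lower and 0 higher, beside 10.1 and 5.72% of all genes. The list had a median of 10985 against 12929 CPM per cell, and 30 of 79 hormone-rich cells (38.0%, 27.3 to 49.6%) were above the hormone-poor median. Hspa1a, an inducible HSP70 chaperone, was at 306 against 1240 CPM (0.25, 0.23 to 0.27), yet 60.8% of hormone-rich cells were above the hormone-poor median, with a median of 51.6 against 37.5 CPM per cell. Hspa1b, its near-identical neighbour, was at 0.28 with 50.6% above. The 2 copies share reads and their split is uncertain. The highest hormone-rich cell had 5804 CPM of Hspa1a and the highest hormone-poor cell 17596 CPM.

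**Figure D5:**
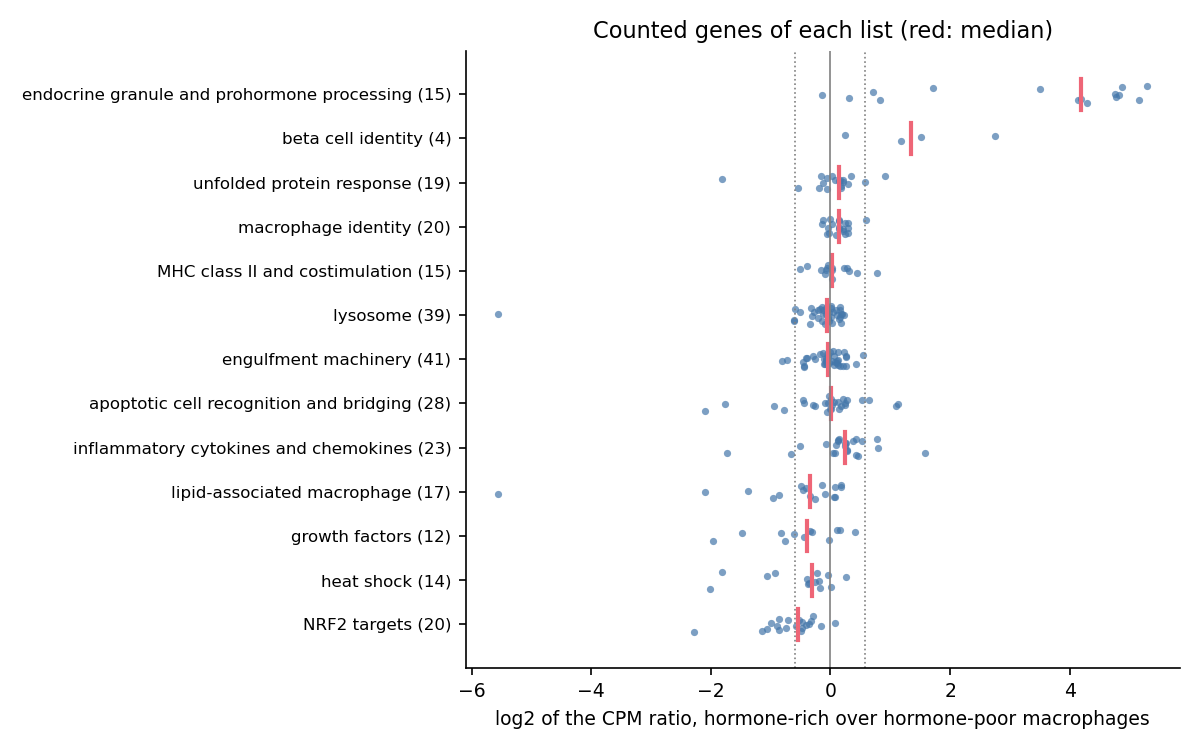
The log2 CPM ratio of hormone-rich over hormone-poor macrophages (x axis) for each counted gene of 13 lists (rows, with the number of counted genes), with the list median in red and dotted lines at a 1.5-fold difference. The endocrine granule list has a median of 4.18 and the NRF2 targets of -0.55, while lysosomal, MHC class II and engulfment genes have medians between -0.06 and 0.02.

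Markers of other immune cells were close to or below the hormone-poor level. The T cell list was at 599 against 608 CPM, but 8 of its 12 genes, among them Cd3d, Cd3e and Cd3g, had 0 UMIs in the 79 cells. Only 2 of the 12 were counted, so these sums rest on few genes and do not measure T cell RNA as a whole. The NK cell list was at 4.00 against 8.35 CPM and the dendritic cell list at 56.0 against 83.1 CPM. The B cell list was at 107 CPM in both groups. Of 25 acinar genes 21 were at 0, and the list summed to 2.86 CPM. The endothelial list was at 46.3 against 22.03 CPM, with Cldn5 at 0, and the epithelial list at 57.7 against 17.7 CPM. Their part in the results was not tested.

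Surface CD9, a tetraspanin, and CD206, the mannose receptor encoded by Mrc1, were measured independently of RNA, by the DNA barcodes that each antibody carried. The barcodes, whose counts are the surface values below, are given whole, and the capitals mark the entire barcode.
CD9: TAGCAGTCACTCCTA
CD206: TCAACTCGGTGTTGC

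CD9 ran from 10 to 18409 UMIs per hormone-rich cell with a median of 493, and from 2 to 37469 per hormone-poor cell with a median of 694.5. The ranges overlapped almost wholly. Of the hormone-rich cells 34 of 79 (43.0%, 31.9 to 54.7%) were above the hormone-poor median, where Cd9 RNA was at 0.55. CD206 ran from 0 to 572 UMIs with a median of 12, against 0 to 6365 with a median of 9, and 46 of 79 cells (58.2%, 46.6 to 69.2%) were above the hormone-poor median. Both intervals include 50%, and neither shows that the groups are alike. Per tercile of CD9 antibody, hormone-rich cells were 4.93, 4.22 and 4.75% of gated macrophages from the lowest to the highest. Mrc1 RNA was at 39.4 against 32.2 CPM (1.23, 0.95 to 1.57).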

How the data were processed

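The mRNA and antibody UMI counts of 1 sample of pooled cells were deposited as a filtered matrix of 32285 genes and 2 antibody tags, per the file headers the output of Cell Ranger 8.0.1, and on mm10 per the submitters' processing notes. The rule by which cell barcodes were kept is not given in those sources. Of the 2237 barcodes 2215 passed the limits on genes and mitochondrial UMIs, and 2003 of them the minimum of 5000 RNA UMIs. The members and gene lists were chosen with earlier results of these data known.

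UMIs were summed per group and divided by RNA UMIs other than the 7 hormones. Ratios have exact conditional binomial intervals, sums exact Poisson and shares exact Clopper-Pearson intervals, all at 95%. A gene was counted at 100 UMIs or more in the hormone-rich and hormone-poor sums together, and called higher or lower at a 1.5-fold ratio. The scripts were tested on simulated data. Of 553 listed genes 552 were in the matrix, 2 by an older symbol, and 38 symbols of the matrix were shared by 2 or more IDs. Named genes were the leading 12 per direction when genes were ranked by the interval bound nearest to 1, outside the hormones, mitochondrial, ribosomal, endocrine, epithelial and acinar genes, at most 4 per list and direction, and a fixed set. Prdx1, Gclc, Fth1, Ftl1, Atf4, Xbp1, Tnf, Il1b, Grap2, Blnk, G6pc2 and the examples by gene span were added after their values were seen.

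Lymphocytes had at least 3 marker UMIs and C1q under 500 CPM. Of them and the endocrine cells, 1 cell met both gates and was counted as endocrine. Doublets were scored with Scrublet in scanpy 1.11.5 and none was removed. Leaving out the 40 highest scores (1.79%) was an alternative. Other tools were numpy 2.4.6, scipy 1.17.1 and pandas 2.3.3. Gene spans and coordinates came from RefSeq, GRCm38.p6.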

Additional observations from a re-analysis of the deposited data

How the results depend on the processing

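The thresholds set the counts of genes. With hormone-rich cells defined at 2% (43 cells), 909 genes were higher and 1469 lower by 1.5-fold, and at 5% (15 cells) 1608 and 2238, against 551 and 976 at 1%. With a minimum of 300 UMIs per gene the counts were 194 and 481, and with at least 1 UMI in each group 3186 and 1551. The count of higher endocrine companion genes was then 8 and 56, against 16. Without the hormone-rich cell with most UMIs of each gene 220 genes were higher and 1762 lower, a removal that by its construction tends to lower the ratio. When the cell with most UMIs was taken from either group the counts were 536 and 940. At 5% the share of cells above the hormone-poor median for CD206 was 40%, against 58.2%, and Ins1, Ins2 or Iapp led in 86.7% of cells, against 96.2%, and in 100% without the cells led by Ppy. The other 78 recomputed values of these results were within 1.5 times the count or within the interval of the share. Trpm3 and Frmd5 changed direction with a macrophage gate of 4000 CPM (log2 ratios -1.46 and -1.68) and without the cell with most of their UMIs, which is the cell with most endocrine RNA (-1.45 and -1.71). Among hormone-rich cells under 5% Trpm3 was at -2.75 and Cacna1a at -1.70, and Pros1 was at -0.23 at 5%. Over all settings run the median log2 ratio of NRF2 targets was between -0.92 and -0.52, Hmox1 between -1.21 and -0.98, Herpud1 between 0.80 and 1.08, Hspa5 between 0.39 and 0.73 and Il12b between 0.22 and 1.77. The settings that leave out each gene's top hormone-rich cell, the cell with most endocrine RNA or the cells led by Ppy, or keep cells under 5%, and the strata and the 10-fold enrichment, were chosen after seeing the data. The causes were not tested, apart from the smaller number of cells or genes that a setting leaves. No paired analysis was possible because the cells are 1 sample. With 79 cells of 1 pool, genes of few UMIs rest on few cells.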

Other observations

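Other gene groups of the hormone-rich macrophages were close to the hormone-poor cells. Over all counted genes 5.72% were 1.5-fold higher and 10.1% lower. Of 15 counted interferon response genes 0 were 1.5-fold higher and 1 lower. The list summed to 1.06 of the hormone-poor level (1.04 to 1.09), while in the cells between the thresholds it summed to 1.25 (1.24 to 1.26). Of 16 counted genes of glycolysis 1 was higher and 0 lower, with a summed ratio of 0.905. Of 22 counted genes of glutathione use and peroxide removal 3 were higher and 2 lower, with a summed ratio of 0.956. The unfolded protein response list, as given above, was higher in sum instead. By tercile of that list, hormone-rich cells were 3.70, 3.16 and 7.03% of gated macrophages from the lowest to the highest.

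The 3 cells led by Ppy had hormone shares of 5.54, 5.08 and 1.21%. They held 1423, 968 and 590 UMIs of Ppy, with 3, 108 and 73 UMIs of Gcg and 11, 14 and 25 UMIs of Ins2.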
